A study of Mus musculus with 12 samples.

Results

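The immunity-related GTPases (IRG proteins) are a family of interferon-induced GTPases of mouse cells. The genes described here are the 7 rows of the deposited count table whose symbol is Irgm1, Irgm2, Igtp, Iigp1, Ifi47, Tgtp1 or Tgtp2, out of 48440 genes in the table, and all 7 passed the filter on low counts that left 16292 genes for testing. They were measured by RNA-seq in macrophages grown from mouse bone marrow, labelled WT or CKO, in 6 groups of 2 libraries: each genotype without cytokine, after 24 h of IFN-γ at 100 U/mL, and after 24 h of IL-4 at 20 ng/mL. IFN-γ is the cytokine that switches macrophages to killing intracellular microbes, and IL-4 drives the alternative, tissue-repair state. The labels name neither the deleted gene nor the promoter that drives deletion, and give no strain, age or sex of the mice. IRF8, a transcription factor of the myeloid lineage, appears in the title of the series. Whether the libraries within a group stem from different animals is not stated, so p-values here measure library-to-library spread alone, and that spread may be technical.

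IRG proteins fall into regulators and effectors. The regulators Irgm1, Irgm2 and Igtp (also called Irgm3) sit on host membranes such as the Golgi, endoplasmic reticulum and lipid droplets and hold the effectors in their inactive, GDP-bound form. The effectors, among them the products of Iigp1, Ifi47, Tgtp1 and Tgtp2, load onto the vacuoles of intracellular parasites and bacteria such as Toxoplasma and Chlamydia and help to rupture them, together with guanylate-binding proteins and the autophagy enzymes that conjugate ATG8 proteins. IFN-γ acts through its receptor and the kinases Jak1 and Jak2 on genes that carry GAS elements, while ISRE elements bind complexes that hold Irf9, or single IRF factors.

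All but Iigp1 lie on chromosome 11. On GRCm38 with GENCODE M21, Igtp (ENSMUSG00000078853.8) spans chr11:58199556-58207591 and Irgm2 (ENSMUSG00000069874.7) spans chr11:58199618-58222782, both on the plus strand, so they overlap and share 162 exon bases. Tgtp1 (ENSMUSG00000078922.9, chr11:48985327-48994172) and Tgtp2 (ENSMUSG00000078921.3, chr11:49057194-49064206) are near-identical copies on the minus strand. Of the stretches of 50 bases in the transcripts of Tgtp1, 81.2% also occurred in another gene, and 79.4% occurred in Tgtp2. For Tgtp2 these shares were 86.6% and 85.8%, so values given for Tgtp1 and Tgtp2 apart are uncertain. How the counting treated reads that fit both genes was not tested, so their summed level is uncertain too. The shared part was 11.8% in Igtp, 7.8% in Irgm2, 2.5% in Ifi47, 1.7% in Iigp1 and 0.3% in Irgm1. The identifiers of Irgm1 (ENSMUSG00000046879.6), Ifi47 (ENSMUSG00000078920.2) and Iigp1 (ENSMUSG00000054072.11) carry another version in that annotation, so no start or end is given.

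Upstream of 4 of the genes, a GAS pattern and an ISRE pattern stand side by side. The stretches below run from 120 to 15 bases before the RefSeq transcription start (RefSeq on GRCm38.p6, read 5′ to 3′ on the strand of the gene), and are shown because Igtp, Irgm2, Tgtp1 and Tgtp2 carry these letters in one arrangement and Irgm1 in another. Capitals mark matches to the GAS pattern TTCNNNGAA or to the ISRE pattern, which is GAAA, any 2 bases, and GAAA again. Their positions are chr11:58199436-58199541 for Igtp and chr11:58214857-58214962 for Irgm2 on the plus strand, and chr11:48992261-48992366 for Tgtp1, chr11:49064227-49064332 for Tgtp2 and chr11:48871435-48871540 for Irgm1 on the minus strand.
Igtp: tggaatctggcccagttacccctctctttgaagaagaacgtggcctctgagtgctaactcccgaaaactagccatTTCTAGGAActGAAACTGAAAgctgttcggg
Irgm2: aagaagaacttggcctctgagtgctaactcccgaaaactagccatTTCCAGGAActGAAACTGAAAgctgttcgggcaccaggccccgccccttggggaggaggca
Tgtp1: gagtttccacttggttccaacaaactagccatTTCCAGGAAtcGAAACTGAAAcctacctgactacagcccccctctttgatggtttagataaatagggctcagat
Tgtp2: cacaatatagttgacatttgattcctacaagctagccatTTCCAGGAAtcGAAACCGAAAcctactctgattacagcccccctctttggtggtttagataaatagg
Irgm1: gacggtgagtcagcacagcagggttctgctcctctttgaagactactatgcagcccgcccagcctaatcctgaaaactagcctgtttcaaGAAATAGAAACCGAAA

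Both strands of the window from 250 bases before to 50 bases after the start were searched for 3 patterns. Of 32851 promoter entries, 8.3% held the GAS pattern, 3.44% held the ISRE pattern, and 0.454% held both. The EICE pattern (GGAA, any 2 bases, GAAA), to which PU.1 binds with IRF8 or IRF4, was in 2.72%, and in the members it overlapped the GAS and ISRE letters. Among the 6 members on chromosome 11, 4 held GAS, 5 held ISRE and 4 held EICE. Iigp1, on chromosome 18, was left out of this count. In Igtp the GAS match ran from −45 to −37 and the ISRE match from −34 to −25, and in Irgm2 the same pair ran from −75 to −67 and from −64 to −55. In Tgtp1 the matches lay at −88 to −80 and −77 to −68, and in Tgtp2 at −81 to −73 and −70 to −61. In all 4 genes 2 bases separated the patterns, an arrangement of 21 bases that was found in 5 of the 32851 promoters (0.0152%). The 5 were Igtp, Irgm2, Tgtp1, Tgtp2 and the family gene Gm12185. This arrangement was chosen after the sequences were seen, and these genes share sequence by descent. Irgm1 had no GAS match but a pair of overlapping ISRE matches at −30 to −21 and −24 to −15, and Ifi47 had no match in this window. All 6 members counted here rose after IFN-γ, with or without these matches, and so did Iigp1, whose matches are not given. No relation between a match and the size of the response was tested.

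**Figure D1:**
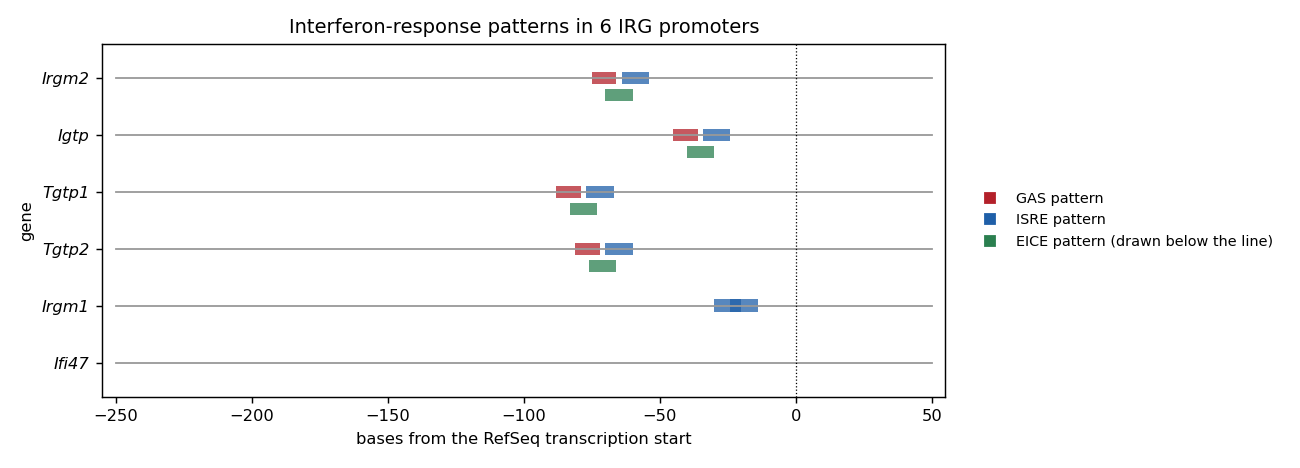
Matches to the GAS, ISRE and EICE patterns in the promoters of 6 IRG genes, with the distance in bases from the RefSeq transcription start on the x axis and 1 gene per line. GAS and ISRE matches stand 2 bases apart in Irgm2, Igtp, Tgtp1 and Tgtp2, while Irgm1 has 2 overlapping ISRE matches and Ifi47 has none in the window.

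Libraries held 21287725 to 32717379 counts. Irf8, the gene of the factor in the title, was higher in the libraries labelled CKO under every treatment. Untreated, it stood at 293 and 248 CPM (the usual CPM scale, with library sizes adjusted by TMM factors) against 90.9 and 91.2 in WT. Counts over a whole gene cannot show the loss of an exon, and which gene was deleted was not tested. Lyz2, which encodes lysozyme, stood at 5845 to 11858 CPM in WT and 12.6 to 28 CPM in CKO libraries. All 8 macrophage markers were detected in every group, with a summed CPM after IFN-γ of 3454 to 3575 in WT and 4777 to 4968 in CKO. In this sum the genotypes overlapped untreated (5008 to 5041 in WT, 4956 to 5338 in CKO) and after IL-4 (7507 to 7793 and 7255 to 7826). Single markers differed: of 9 tested rows, 3 were higher and 2 lower in CKO untreated, against 8.6% and 9.37% of all genes tested. After IFN-γ 5 were higher and 2 lower, against 10.4% and 8.01%. After IL-4 0 were higher and 2 lower, against 1.41% and 1.55%. The summed CPM of 12 neutrophil markers was higher in CKO than in WT libraries: 719 to 978 against 229 to 238 untreated, 499 to 502 against 96.7 to 110.3 after IFN-γ, and 424 to 492 against 208 to 216 after IL-4. The summed CPM of 5 dendritic cell markers after IFN-γ was 50.6 to 60 in WT and 8.1 to 9.93 in CKO. Untreated, this sum was 1.71 to 2.45 CPM in WT and 1.9 to 2.81 CPM in CKO. After IL-4 it was higher in CKO, 9.87 to 10.5 CPM against 7.13 to 8.2 CPM in WT. The 8 T cell markers summed to 3.04 to 3.24 CPM in WT and 15 to 19.6 CPM in CKO untreated, to 0.994 to 1.01 and 2.34 to 2.48 CPM after IFN-γ, and to 1.88 to 1.99 and 4.6 to 8.49 CPM after IL-4, with Cd3e and Cd3g at 0 in all groups. The 4 NK cell markers summed to 40.8 to 57.6 CPM in WT and 10.3 to 14.9 CPM in CKO after IFN-γ, and to at most 0.228 CPM in the other groups, with Ncr1 and Gzma at 0 in all groups. After IFN-γ Klrb1c was at 0 as well, so the sum there came from Klrk1 alone. The B cell and stromal markers summed to at most 4.93 and 0.347 CPM. The part of these markers in the genotype differences of the IRG genes was not tested. In bulk RNA, fewer cells of a type and less RNA per cell cannot be told apart. Untreated CKO library 1 stood apart with 1.52% of counts from mitochondrial genes, against 2.12% to 3.25% in the other 11 libraries.

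IFN-γ raised all 7 IRG genes in both genotypes, and for every gene each IFN-γ library lay above each untreated library of its genotype, as was the case for 29.3% of all genes tested in WT and 31% in CKO. Across all genes tested, 24.2% passed the edgeR test at an adjusted p under 0.05 in WT (12.4% higher and 11.8% lower) and 26.6% in CKO (14.7% higher and 11.9% lower). The median log2 fold change of the 7 genes was 5.77 in WT and 7.06 in CKO, against 0 over all genes tested.

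Irgm1, a regulator whose loss leaves mice open to many intracellular bacteria, was the most abundant of the 7 by CPM before treatment. Its CPM was 27.2 and 26.7 in untreated WT libraries and 1001 and 1039 after IFN-γ. In the CKO libraries it was 32.1 and 29.2 before and 1337 and 1370.5 after. Its log2 fold change was 5.24 ± 0.18 (SE) in WT and 5.47 ± 0.18 in CKO (edgeR adjusted p = 1.43e-09 and 9e-10). Irgm2, which restrains effectors and noncanonical inflammasome signalling, went from 12 and 10.9 CPM to 258 and 267 CPM in WT. In CKO it went from 21.2 and 16.4 to 585 and 561 CPM. These were the smallest responses of the 7 genes, with a log2 fold change of 4.51 ± 0.20 in WT and 4.93 ± 0.20 in CKO (edgeR adjusted p = 1.56e-08 and 6.65e-09). Igtp, the regulator found on the endoplasmic reticulum and lipid droplets, stood at 8.07 and 8.19 CPM in untreated WT and at 419 and 472 after IFN-γ. In CKO it stood at 8.88 and 7.64 CPM before and at 1090 and 1106 after. Its log2 fold change was 5.77 ± 0.12 in WT and 7.06 ± 0.13 in CKO (edgeR adjusted p = 3.53e-11 and 1.7e-11).

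The effectors Iigp1, Tgtp1 and Tgtp2 were close to silent before IFN-γ. Iigp1, on chromosome 18, had 5 to 15 counts in each of the 8 libraries without IFN-γ and 51066 to 64250 counts in each of the 4 with it. Its CPM rose from 0.280 and 0.375 to 2115 and 2243 in WT, and from 0.569 and 0.346 to 2339 and 2388 in CKO. That was a log2 fold change of 12.68 ± 0.24 in WT and 12.36 ± 0.23 in CKO (edgeR adjusted p = 1.71e-11 and 1.7e-11), the 6th and 7th largest among the 16292 genes. Tgtp1 went from 0.489 and 0.443 CPM to 458 and 566 CPM in WT, and from 0.569 and 0.433 to 1299.6 and 1346 in CKO. Its log2 fold change ranked 22nd in WT (10.09 ± 0.19, edgeR adjusted p = 1.71e-11) and 10th in CKO (11.38 ± 0.19, edgeR adjusted p = 1.36e-11). The similar copy Tgtp2 went from 0.664 and 0.648 CPM to 675 and 799 in WT, and from 1.18 and 0.663 to 1488 and 1526 in CKO. Its log2 fold change was 10.12 ± 0.21 in WT and 10.71 ± 0.21 in CKO (edgeR adjusted p = 3.53e-11 and 2.34e-11).

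Ifi47, by contrast, had a baseline like that of the regulators. Its CPM was 8.21 and 6.79 in untreated WT and 288 and 319 after IFN-γ. In CKO it was 10.3 and 9.52 before and 534 and 528 after. The log2 fold change of Ifi47 was 5.34 ± 0.28 in WT and 5.74 ± 0.28 in CKO (edgeR adjusted p = 1.48e-07 and 7.62e-08). In WT the response therefore lay between 4.51 and 5.77 on the log2 scale in the 4 genes with a baseline of several CPM. It was above 10 in the 3 genes with a baseline under 1 CPM. The baseline is the divisor of the fold change, so this split is partly built in. After IFN-γ the mean CPM in WT did not separate the 2 sets. Irgm1 (1020.1) lay above Tgtp2 (737) and Tgtp1 (512), while Iigp1 (2179) lay highest and Igtp (445), Ifi47 (304) and Irgm2 (262) lowest. The smaller responses still ranked from 106th (Igtp) to 163rd (Irgm2) among the 16292 genes.

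**Figure D2:**
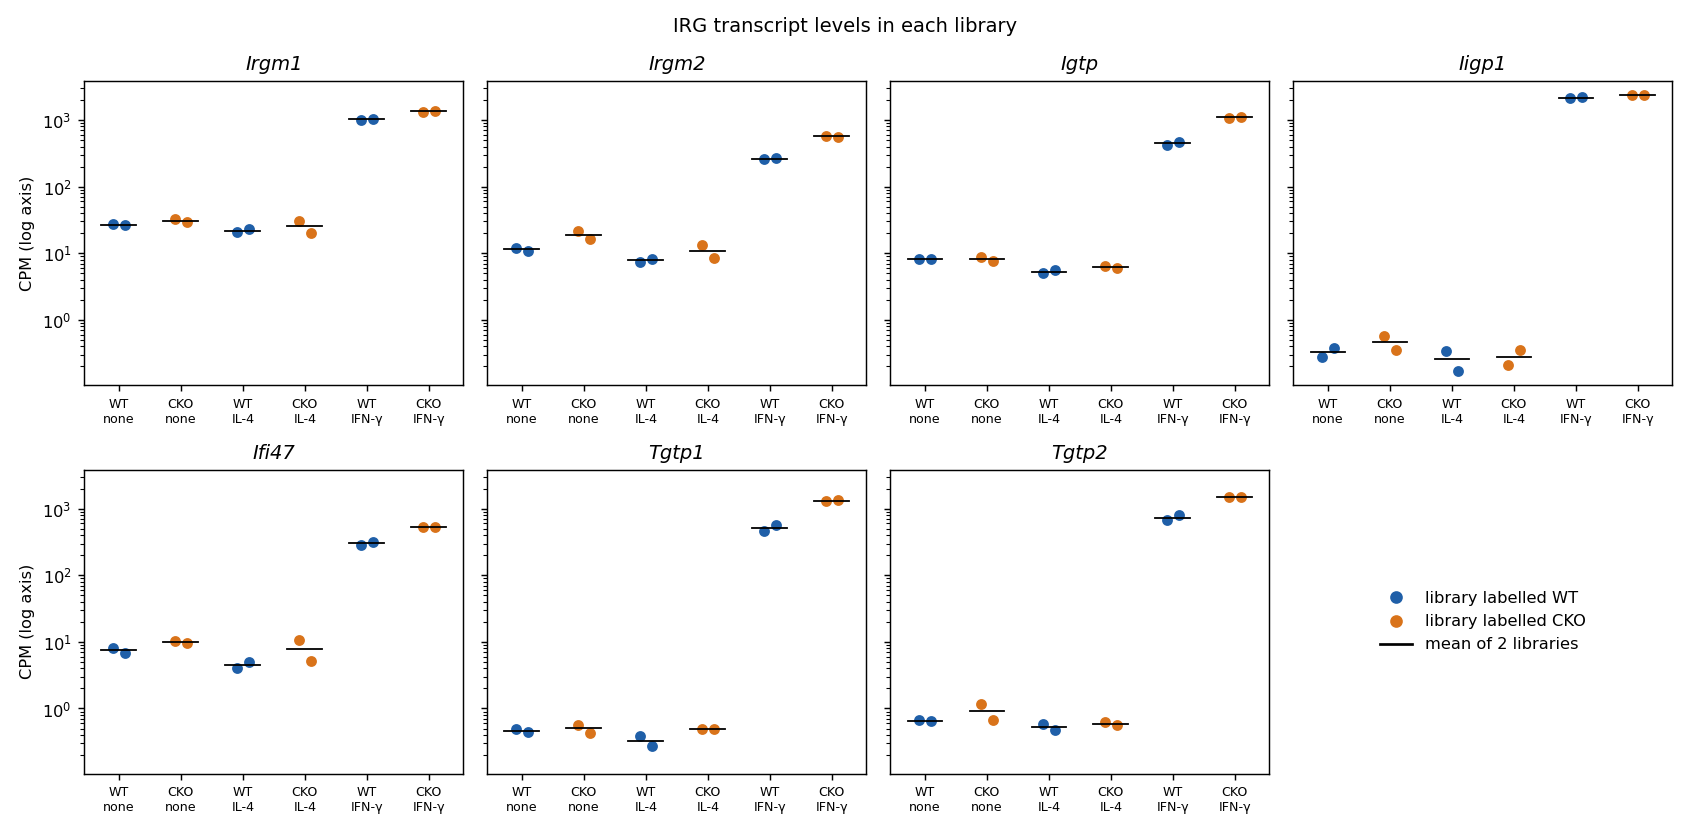
CPM of each IRG gene on a log axis in the 12 libraries, by genotype and treatment, where none means no cytokine, each point is 1 library and each bar is the mean of 2. The 4 IFN-γ libraries lie above the other 8 in every panel, and Iigp1, Tgtp1 and Tgtp2 lie near or below 1 CPM without IFN-γ.

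**Figure D3:**
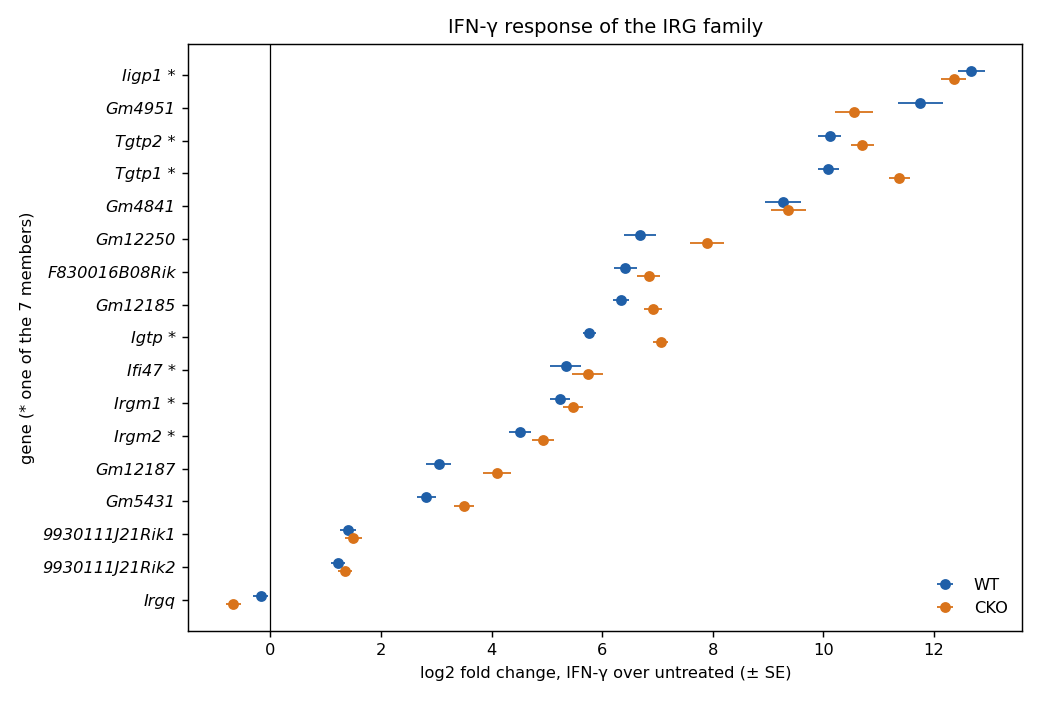
Log2 fold change of IFN-γ over untreated (x axis, ± SE) for the 7 members, marked with an asterisk, and 10 other family genes, in WT and in libraries labelled CKO. Iigp1 has the largest value in both genotypes, and Irgq is the only gene below 0. The point of Gm4841 rests on 3 counts in the untreated WT libraries.

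Levels were compared between genes as CPM per kilobase of merged exons, a scale that the capture of exons during library preparation may also shift, which was not tested. In untreated WT the order of mean level was Irgm1 (4.64 ± 0.0539, SD, n = 2), Igtp (4.02 ± 0.0401), Irgm2 (3.11 ± 0.199) and Ifi47 (3.03 ± 0.407), then Tgtp2 (0.223 ± 0.00381), Tgtp1 (0.146 ± 0.0101) and Iigp1 (0.0562 ± 0.0116). Only the neighbours Irgm2 and Ifi47 overlapped between libraries in that order. After IFN-γ, the order of mean level in WT was Iigp1 (374 ± 15.6), Tgtp2 (251 ± 29.7), Igtp (220.2 ± 18.5), Irgm1 (176 ± 4.64), Tgtp1 (159.7 ± 24.0), Ifi47 (123 ± 8.91) and Irgm2 (71.0 ± 1.76). There Tgtp2 overlapped Igtp, and Irgm1 overlapped Tgtp1. In CKO after IFN-γ the order of mean level was Igtp (543 ± 5.71), Tgtp2 (513 ± 9.04), Tgtp1 (413 ± 10.1), Iigp1 (406 ± 6.0), Irgm1 (233 ± 4.06), Ifi47 (215 ± 1.63) and Irgm2 (155 ± 4.49), with overlap between Tgtp1 and Iigp1. Iigp1 thus ranked last without IFN-γ, first after it in WT and behind Igtp, Tgtp2 and Tgtp1 in CKO, while Irgm2 ranked last after IFN-γ in both genotypes.

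The make-up of the IRG transcript pool changed with IFN-γ. The summed level of the 7 genes was 54.1 to 56.9 CPM in untreated WT and 5213 to 5705 CPM after IFN-γ, and in CKO it was 64.1 to 74.8 CPM before and 8673 to 8826 CPM after. Per kilobase, the 3 regulators Irgm1, Irgm2 and Igtp made up 76.1% to 78.6% of the pool in untreated WT and 75.6% to 76.3% in untreated CKO. After IFN-γ they made up 33.5% to 34.5% in WT and 37.4% to 37.7% in CKO. After IL-4 their share was 79.8% to 80.1% in WT and 71.8% to 77.9% in CKO. Iigp1 held 0.307% to 0.436% of the pool in untreated WT and 26.6% to 27.9% after IFN-γ, where its share in CKO was 16.3% to 16.4%. The share of Igtp after IFN-γ was 15.9% to 16.1% in WT and 21.9% in both CKO libraries. These ranges between libraries are descriptions, with no test. Reads shared by Tgtp1 and Tgtp2 may be counted in part only, which would shift the shares of all 7 genes and the order per kilobase.

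**Figure D4:**
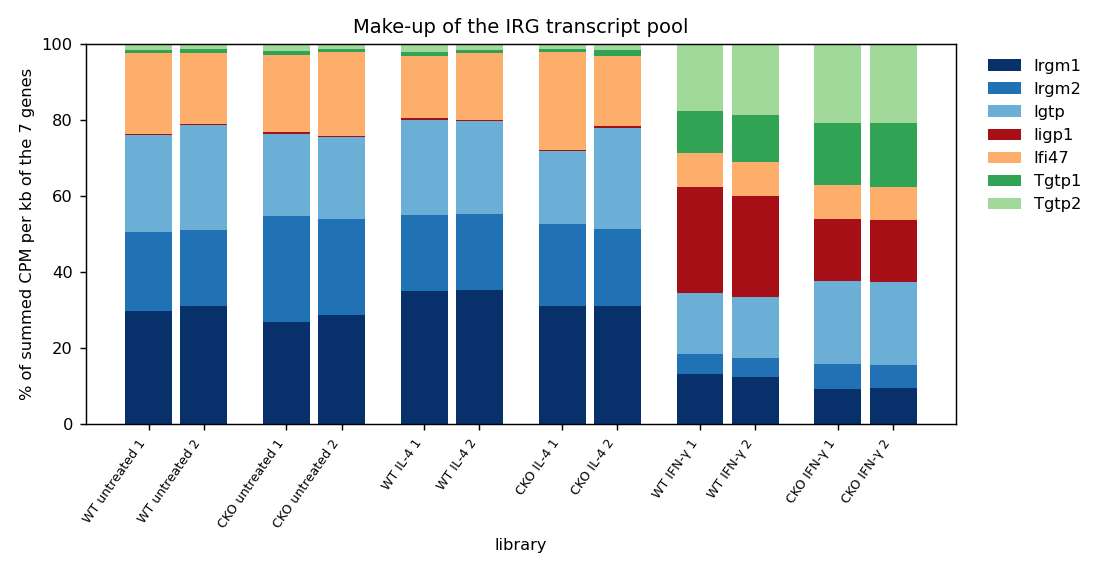
Share of each IRG gene (y axis, % of the summed CPM per kilobase of the 7 genes) in each of the 12 libraries. The 3 regulators (blues) hold 71.8% to 80.1% in the 8 libraries without IFN-γ and 33.5% to 37.7% in the 4 with it.

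After IFN-γ, 5 of the 7 IRG genes were higher in the libraries labelled CKO than in WT. Among all genes tested, 18.4% passed the edgeR test in this comparison, 10.4% higher and 8.01% lower in CKO. This direction is one between labelled groups. Irf8 counts were also higher in these CKO libraries, and whether IRF8 function was lost in them was not tested. Both CKO libraries lay above both WT libraries for all 7 genes, the 2 that did not pass the test included, and the same held for 32.7% of all genes tested. Tgtp1 had the largest log2 difference, 1.37 ± 0.11 (458 and 566 CPM in WT, 1299.6 and 1346 in CKO, edgeR adjusted p = 1.32e-05), and Igtp was next with 1.30 ± 0.10 (edgeR adjusted p = 6.84e-06). Irgm2 differed by 1.13 ± 0.17 (edgeR adjusted p = 0.001) and Tgtp2 by 1.03 ± 0.13 (edgeR adjusted p = 0.000309). Ifi47 differed by 0.81 ± 0.23 (edgeR adjusted p = 0.0331). The call for Ifi47 was lost without either WT IFN-γ library (edgeR adjusted p = 0.153 and 0.0986), without either CKO IFN-γ library (edgeR adjusted p = 0.167 and 0.115) and without WT IL-4 library 1 (edgeR adjusted p = 0.0569). Irgm1 had a log2 difference of 0.41 ± 0.15 and did not pass (edgeR adjusted p = 0.0784). It did pass without the filter on low counts (edgeR adjusted p = 0.00547), with only the groups compared (0.0135) and with the library number as a block (0.0485). Without CKO IL-4 library 1 or library 2 its log2 difference was 0.39 or 0.41. Iigp1, the most abundant of the 7 by CPM, had a log2 difference of 0.12 ± 0.13 (edgeR adjusted p = 0.59). With Tgtp1 and Tgtp2 summed to a single gene, their log2 difference was 1.18.

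Without cytokine, 1 of the 7 IRG genes differed between the genotypes, against 18.0% of all genes tested (8.6% higher and 9.37% lower in CKO). Irgm2 stood at 12 and 10.9 CPM in WT and at 21.2 and 16.4 CPM in CKO. That was a log2 difference of 0.71 ± 0.19 (edgeR adjusted p = 0.0247). The call for Irgm2 was lost without untreated CKO library 1, the library that stood apart (0.52, edgeR adjusted p = 0.18), and without WT untreated library 1 or 2 (edgeR adjusted p = 0.0902 and 0.141). Irgm1 and Ifi47 did not overlap between the genotypes either, as was the case with CKO above for 29.2% of all genes, with log2 differences of 0.19 ± 0.15 (edgeR adjusted p = 0.426) and 0.40 ± 0.26 (edgeR adjusted p = 0.305). The other 4 genes overlapped, with log2 differences from 0.02 for Igtp to 0.44 for Iigp1 and Tgtp2. Without untreated CKO library 1 the difference of Igtp was −0.08 and that of Tgtp1 was −0.10.

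After IL-4, 0 of the 7 genes passed between the genotypes in edgeR's quasi-likelihood test, where 2.96% of all genes did (1.41% higher and 1.55% lower in CKO). At an unadjusted p under 0.05 there were 2, Irgm2 (log2 difference 0.46 ± 0.19, edgeR adjusted p = 0.307) and Ifi47 (0.79 ± 0.28, edgeR adjusted p = 0.201). DESeq2 called 1, Ifi47. CKO IL-4 library 2 was the lower of its pair for Irgm1 (30.3 and 20.1 CPM), Irgm2 (13.4 and 8.38 CPM) and Ifi47 (10.7 and 5.10 CPM). Without it 3 genes passed: Irgm1 (0.49, edgeR adjusted p = 0.0499), Irgm2 (0.78, edgeR adjusted p = 0.0244) and Ifi47 (1.26, edgeR adjusted p = 0.00239).

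**Figure D5:**
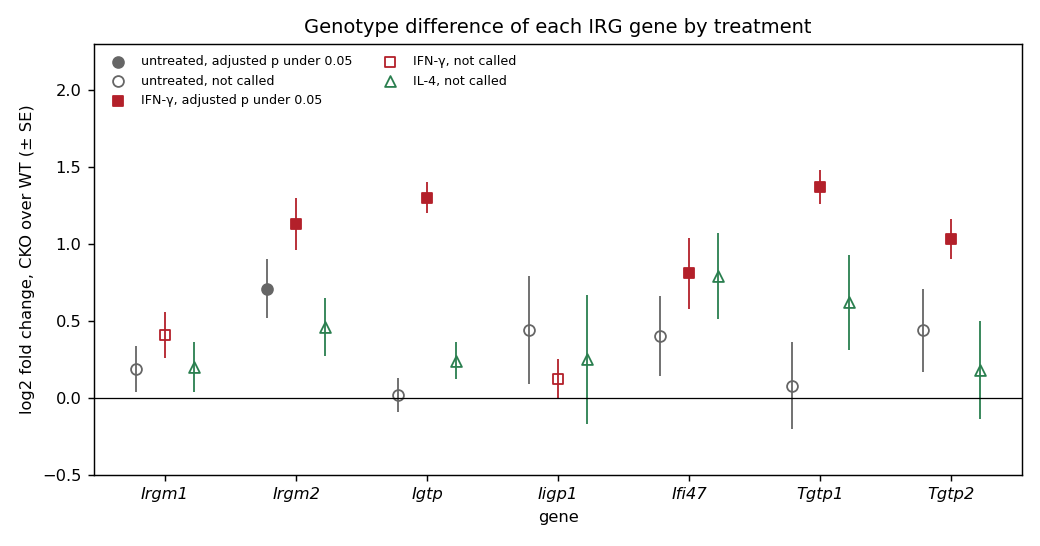
Log2 fold change of CKO over WT (y axis, ± SE) for each IRG gene, untreated, after IFN-γ and after IL-4, with filled symbols for an edgeR adjusted p under 0.05. All values lie above 0, 5 of the 7 IFN-γ values are filled, and Iigp1 after IFN-γ lies at 0.12.

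The response to IFN-γ itself differed between the genotypes for 2 of the 7 genes, against 2.72% of all genes tested (2.07% more positive and 0.651% more negative). This difference of responses takes the IFN-γ effect in CKO minus that in WT. For Igtp, whose untreated levels overlapped between the genotypes, it was 1.28 ± 0.15 on the log2 scale (edgeR adjusted p = 0.00111), and it kept its call in all 19 alternatives. Without untreated CKO library 1 the value for Igtp was 1.36 (edgeR adjusted p = 0.00126). For Tgtp1 it was 1.29 ± 0.31 (edgeR adjusted p = 0.0493), a value at the edge of the threshold that did not pass in 15 of 20 alternatives, 11 of them fits without a single library (edgeR adjusted p up to 0.301). Summed with Tgtp2, the value was 0.87 (edgeR adjusted p = 0.147). Tgtp2 alone had 0.59 ± 0.31 (edgeR adjusted p = 0.469), Irgm2 had 0.42 ± 0.25 (0.554), Ifi47 had 0.40 ± 0.35 (0.734) and Irgm1 had 0.22 ± 0.21 (0.768). Iigp1 had the only negative value, −0.32 ± 0.37 (edgeR adjusted p = 0.843). For the response to IL-4, 0 of the 7 genes differed between the genotypes in edgeR, 0 did at an unadjusted p under 0.05 and 0 did in DESeq2, where edgeR called 0.0368% of all genes (0.0246% more positive and 0.0123% more negative).

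IL-4 lowered Igtp in both genotypes and Irgm2 in CKO, and none of the 7 members rose. In WT, 1 of the 7 genes passed, against 12.2% of all genes tested (6.64% higher and 5.59% lower). In CKO 2 passed, against 22.5% (11.2% higher and 11.3% lower). These are shares close to those of all genes tested in either direction. Igtp went from 8.07 and 8.19 CPM to 5.11 and 5.51 in WT, with no overlap. Its log2 fold change there was −0.61 ± 0.12 (edgeR adjusted p = 0.00503), and −0.57 without WT IL-4 library 1, where it did not pass (edgeR adjusted p = 0.0699). In CKO, Igtp went from 8.88 and 7.64 CPM to 6.52 and 6.04, a log2 fold change of −0.39 ± 0.11 (edgeR adjusted p = 0.0277). Irgm2 in CKO went from 21.2 and 16.4 CPM to 13.4 and 8.38, a log2 fold change of −0.79 ± 0.19 (edgeR adjusted p = 0.0113). Without untreated CKO library 1 these were −0.29 (edgeR adjusted p = 0.161) and −0.60 (0.0913), and without CKO IL-4 library 2 they were −0.34 (0.178) and −0.49 (0.0846), so neither passed. Igtp in CKO also missed the threshold without WT IL-4 library 2 (0.0508) or CKO IFN-γ library 2 (0.0521). With only the groups compared, neither CKO call held (edgeR adjusted p = 0.292 for Igtp and 0.115 for Irgm2). In WT the other 6 genes had log2 fold changes from −0.73 ± 0.28 (Ifi47, edgeR adjusted p = 0.136) to −0.30 ± 0.16 (Irgm1, edgeR adjusted p = 0.271). The effectors Iigp1, Tgtp1 and Tgtp2 stayed below 1 CPM in all 4 IL-4 libraries, at 0.169 to 0.624 CPM. The IFN-γ and IL-4 comparisons of a genotype share its untreated libraries.

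Other genes of the family followed IFN-γ in the same direction. Of 11 listed, 10 could be tested. In WT 9 rose, against 12.4% of all genes tested, with a list median of 4.69 on the log2 scale. In CKO 9 rose and 1 fell, against 14.7% and 11.9% of all genes tested, with a median of 5.47. Gm12185, the family gene that shares the promoter arrangement and 223 exon bases with Tgtp1, rose by 6.34 ± 0.15 in WT and by 6.92 ± 0.16 in CKO (edgeR adjusted p = 9.72e-11 and 5.48e-11). F830016B08Rik rose by 6.42 ± 0.21 in WT (edgeR adjusted p = 1.2e-09), and Gm4951 by 11.76 ± 0.40 (edgeR adjusted p = 3.41e-09). Gm4841 had 3 counts in the untreated WT libraries and 1813 after IFN-γ, a ratio of 641 per library total with an exact 95% interval of 219 to 3110.3 that covers counting error only. Irgq, outside the rule for named genes and chosen after its values were seen, fell by 0.67 on the log2 scale in CKO (edgeR adjusted p = 0.00276) and had −0.18 ± 0.13 in WT (0.398). Between the genotypes after IFN-γ, 2 of the 10 were higher in CKO, against 10.4% of all genes tested. The 2 were F830016B08Rik (0.61 ± 0.15, edgeR adjusted p = 0.0147) and Gm12250 (0.74 ± 0.21, edgeR adjusted p = 0.033), the latter also named after its values were seen. F830016B08Rik lost its call in 4 of 18 alternatives and Gm12250 in 5 of 18. Gm12185 had a genotype difference of 0.07 ± 0.11 (edgeR adjusted p = 0.701).

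Among 16 genes of IFN-γ signalling, 12 rose after IFN-γ in each genotype, against 12.4% of all genes tested in WT and 14.7% in CKO. The median of the 16 was 1.25 in WT and 1.56 in CKO. The receptor genes Ifngr1 (−0.23 in WT, −0.37 in CKO) and Ifngr2 (−0.15 and −0.07), the kinase Jak1 (0.09 and −0.01) and the inhibitor Pias1 (0.08 and 0.16) did not pass. Irf1, which binds ISRE elements, rose by 5.54 ± 0.24 in WT and 4.88 ± 0.23 in CKO, Irf8 by 2.48 ± 0.12 and 2.14 ± 0.12, and Stat2 by 2.02 ± 0.12 and 2.66 ± 0.12, each with an edgeR adjusted p of at most 1.48e-07. After IFN-γ, 6 of the 16 were higher in CKO than in WT, against 10.4% of all genes tested. Among the 6 were Irf8 (1.23 ± 0.11, edgeR adjusted p = 2.81e-05) and Stat2 (0.40 ± 0.11, edgeR adjusted p = 0.0308, lost in 5 of 18 alternatives). Irf1 had 0.20 ± 0.19 (edgeR adjusted p = 0.509). Of 10 ligand genes, Ifng had 0 counts in all 12 libraries, and Il27, the only ligand gene with enough counts to test, rose by 5.01 ± 0.26 in WT and by 4.05 ± 0.23 in CKO (edgeR adjusted p = 3.75e-08 and 8.25e-08).

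Of 13 genes whose products act with the IRG proteins at the vacuole, 8 rose and 1 fell in WT and 10 rose and 1 fell in CKO. Among all genes tested, 12.4% rose and 11.8% fell in WT, and 14.7% rose and 11.9% fell in CKO. The guanylate-binding protein genes rose by 10.44 ± 0.33 (Gbp6), 9.73 ± 0.38 (Gbp2), 5.99 ± 0.21 (Gbp9) and 5.92 ± 0.20 (Gbp7) in WT, each with an edgeR adjusted p of at most 1.25e-08. The value of Gbp6 ran from 9.56 to 12.90 as single libraries were left out. Between the genotypes after IFN-γ, 5 of the 13 were higher and 1 was lower in CKO, against 10.4% and 8.01% of all genes tested. Gbp7 was higher by 0.64 ± 0.16 (edgeR adjusted p = 0.0187, lost in 4 of 18 alternatives) and Gbp9 by 0.58 ± 0.16 (edgeR adjusted p = 0.0275, lost in 5 of 18), while Gbp6 (0.50 ± 0.19) and Gbp2 (0.40 ± 0.26) did not pass (edgeR adjusted p = 0.0874 and 0.316). The difference of responses was −1.25 ± 0.25 for Gbp9 (edgeR adjusted p = 0.0212, lost in 5 of 19 alternatives), opposite in sign to that of Igtp. Of 12 genes of ATG8 conjugation, which targets IRG proteins to vacuoles, 1 rose and 2 fell in WT and 0 rose and 3 fell in CKO. These 3 of 12 are a share close to the 24.2% and 26.6% of all genes tested that passed in WT and CKO. In WT, Atg16l1 rose by 0.37 ± 0.11 (edgeR adjusted p = 0.0309, lost in 5 of 19 alternatives), Atg12 fell by 0.51 on the log2 scale (edgeR adjusted p = 0.00749, lost in 1 of 19), Map1lc3b fell by 0.37 (edgeR adjusted p = 0.0346, lost in 8 of 19), and Atg7 had −0.31 ± 0.11 (edgeR adjusted p = 0.0582).

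Likeness of pattern was measured as Pearson's r of log2 CPM over the 12 libraries, among 8598 genes. The 4 IFN-γ libraries stand apart from the other 8 for every IRG gene, so these values describe mainly that step. Genes with a pattern much like that of Igtp included Ifit2 (r = 0.998) and Ifi35 (r = 0.9971). Tap1, a subunit of the peptide transporter for MHC class I, was closest to Irgm1 (r = 0.9987), followed by Gbp2 and Sp110, and also closest to Iigp1 (r = 0.9973), followed by Rbbp8 and Gbp2. Serpinb9, an inhibitor of granzyme B, was closest to Tgtp1 (r = 0.9976), followed by Pnp2, and to Tgtp2 (r = 0.9983), followed by Tap1. Irgm2 was most like Med13 (r = 0.9981), Clic5 and Znfx1, and Ifi47 was most like Il18bp (r = 0.9967), which encodes the decoy that binds interleukin-18, Themis2 and Gbp3.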

How the data were processed

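RNA was measured in 12 libraries, 2 for each of 6 groups taken from the titles. The authors deposited raw counts per gene. The submitters' processing notes name HTSeq 0.6.1, TopHat2 2.0.13, CASAVA 1.8.2 and Picard 1.97, and the builds GRCh38 and mm10 without their role. For the annotation release and strand setting, nothing is given in the sources used here. Library kits captured exons, per the labels' protocols. From the deposited counts, edgeR 4.0.16 (R 4.3.3, TMM scaling, filterByExpr, glmQLFit and glmQLFTest) fitted 6 group means to all libraries, and p-values were adjusted by Benjamini-Hochberg over the 16292 genes tested, with calls at an adjusted p under 0.05. Standard errors are approximate, the log2 fold change divided by the root of the F statistic. CPM uses TMM library sizes. Alternatives were DESeq2 1.42.0, its size factors, no filter, a mean CPM of at least 5, a 2-fold minimum, only the groups compared, the library number as a block, Tgtp1 and Tgtp2 summed, and each library left out. The fits were tested on simulated data. The members and lists were chosen with earlier results of these data known. The named genes are the 7 members, up to 4 genes of each list with the smallest adjusted p for IFN-γ in WT, Irf8, Lyz2 and the 3 genes most like each member in pattern (log2 CPM with a prior count of 2, mean of at least 3, no clone or model names). Results of 1 gene that these rules name are not reported here.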

Additional observations from a re-analysis of the deposited data

Results flagged for a closer look

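The response of Igtp to IFN-γ differed between the genotypes: the log2 fold change was 7.06 in the libraries labelled CKO and 5.77 in WT, a difference of 1.28 ± 0.15 (edgeR adjusted p = 0.00111). A test of the difference itself singled it out. For Tgtp1 the same test gave 1.29 ± 0.31 (edgeR adjusted p = 0.0493), with responses of 11.38 and 10.09. The value for Tgtp1 rests on 13 to 15 counts in each untreated library and on reads that Tgtp2 can share.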

How the results depend on the processing

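Of 63 pairs of gene and comparison, 25 were called, 19 of these kept call and direction in every alternative run, and 0 reversed. All 7 genes remained called for IFN-γ in both genotypes throughout. For CKO against WT untreated, 1 called gene became 2 without the filter and 0 with only the groups compared or a 2-fold minimum. For CKO against WT after IFN-γ, 5 became 6 without the filter, with only the groups compared and with the library number as a block. It became 4 at 2-fold. For CKO against WT after IL-4, 0 became 1 with DESeq2 and 2 without the filter. For IL-4 in WT, 1 became 2 with DESeq2, 3 without the filter, 4 with only the groups compared, and 0 at 2-fold. For IL-4 in CKO, 2 became 0 with only the groups compared and at 2-fold. For the difference of IFN-γ responses, 2 became 1 with DESeq2, with its size factors and with only the groups compared. Leaving out single libraries gave 0 to 2 (untreated), 4 to 6 (IFN-γ) and 0 to 3 (IL-4) called genes between genotypes, 7 for IFN-γ in both genotypes, 0 to 3 for IL-4 in WT, 0 to 4 for IL-4 in CKO, and 1 to 2 and 0 for the differences of response. Where this left a group with 1 library, that library was assumed to vary like the others.

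Values that changed sign were all uncalled. They were Tgtp1 for IL-4 in CKO (0.01 without the filter, against a value near 0) and Tgtp2 for the difference of IL-4 responses (0.05 with Tgtp1 summed, against −0.26). With single libraries left out, they were, untreated between genotypes, Igtp (−0.08 to 0.15) and Tgtp1 (−0.10 to 0.31); after IL-4 between genotypes, Irgm1 (−0.12 to 0.49) and Iigp1 (−0.22 to 0.75); for IL-4, Iigp1 in WT (−0.94 to 0.03), Ifi47 in CKO (−0.98 to 0.11) and Tgtp1 in CKO (−0.22 to 0.18). For the difference of responses they were Iigp1 with IFN-γ (−0.69 to 0.01), and with IL-4 Irgm1 (−0.32 to 0.29), Irgm2 (−0.64 to 0.06), Iigp1 (−0.66 to 0.29), Ifi47 (−0.25 to 0.84) and Tgtp2 (−0.67 to 0.16). The cause was not tested.

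The libraries share only a number across groups. Deviations of same-numbered libraries correlated at −0.049 to 0.725 over 15 pairs of groups. With the number as a replicate block, Irgm1 passed between genotypes after IFN-γ (0.41, edgeR adjusted p = 0.0485), and no other member's call changed. A block within each genotype gave 2 genes for IL-4 in WT.

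The called share of all genes moved too. Against 2927 genes untreated, 2995 after IFN-γ and 482 after IL-4 between genotypes, the alternatives gave 836 to 5034, 1032 to 3987 and 128 to 1129. For IFN-γ they gave 1752 to 4993 in WT (3935 reported) and 1835 to 5818 in CKO (4333), and for IL-4 809 to 3562 in WT (1992) and 1204 to 5463 in CKO (3664). For the differences of response they gave 137 to 1080 (443) and 0 to 329 (6).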

Other observations

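Gm4951, a family gene on chromosome 18 like Iigp1, rose with IL-4 as well as with IFN-γ. It had 2 and 2 counts in the untreated WT libraries and 36 and 82 after IL-4 (log2 fold change 4.98 ± 0.57, edgeR adjusted p = 0.000177). In the libraries labelled CKO it had 4 and 10 counts before and 187 and 121 after (4.42 ± 0.40, edgeR adjusted p = 2.2e-05). After IFN-γ it stood at 244 and 264 CPM in WT, against 1.74 and 2.77 CPM after IL-4. The related genes 9930111J21Rik1 and 9930111J21Rik2, named after their values were seen, fell with IL-4 in WT (−0.59 ± 0.15 and −0.62 ± 0.13, edgeR adjusted p = 0.0234 and 0.00684) and in CKO (−0.61 ± 0.15 and −0.58 ± 0.12, edgeR adjusted p = 0.0133 and 0.00704). Each of these 4 calls was lost when certain single libraries were left out, up to an adjusted p of 0.189, while Gm4951 kept both calls in all 19 alternatives.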
